A study of Arabidopsis thaliana with 4 samples.

Results

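The gibberellin receptor family of Arabidopsis thaliana consists of 3 genes, GID1A (AT3G05120), GID1B (AT3G63010) and GID1C (AT5G27320), and their transcripts were described here in dark-grown seedlings. Each receptor was represented by 1 probe set of the Affymetrix ATH1 array annotated to that gene alone: 259302_at, 251200_at and 246782_at. They were 3 of the 13350 genes with a probe set of their own in the annotation used, which did not list 8730 probe sets. The mutant was the phyA phyB double mutant in the Columbia background, carrying the alleles phyA-211 and phyB-9 and without phytochrome A and phytochrome B, photoreceptors for red and far-red light. It was set against wild-type (WT) Columbia, and each genotype had 2 arrays. Both genotypes were treated alike: seed on 0.8% agar spent 5 days in the cold at 6 °C, then 1 h in white light and 3 days in darkness, both at 22 °C, before the seedlings were harvested. The design asks which transcripts differ in dark-grown seedlings that lack both photoreceptors.

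GID1 proteins are soluble receptors that close over a bound gibberellin molecule and then bind DELLA proteins, repressors of germination and elongation growth. The complex is recognised by the F-box protein SLY1, and the DELLA protein is marked for degradation, so a seed can germinate and a hypocotyl can elongate. The receptors overlap in function, and plants lacking all of them are severe dwarfs whose seeds do not germinate unaided. Phytochromes act on this pathway in imbibed seeds, where light raises gibberellin synthesis, and DELLA proteins hold back the phytochrome-interacting factors that promote hypocotyl growth in darkness.

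Transcript levels were read as scaled linear intensities, 1 per probe set and array. Summed intensity per array ran from 76027250 to 77974921, and the number of arrays limits the precision. Of 6 genes listed as markers of a dark-grown seedling, 3 had a named probe set, and their summed intensity was 254897 and 224189 in phyA phyB seedlings, against 228334 and 225547 in WT seedlings. ICL made up the largest part, with 132927 and 139802 in the mutant and 142038 and 138139 in the WT. PORB had 100743 and 62062 in the mutant, against 59615 and 63173 in the WT. EXPA8 had 21226 and 22325 in the mutant, against 26682 and 24234 in the WT, so the 3 genes did not move alike. Of 20 listed seed genes, 8 had a named probe set, with 0 of them listed at 0 on any array. Their summed intensity was 333420 and 115431 in phyA phyB seedlings, against 31111 and 30305 in WT seedlings. The summed seed signal was thus higher on each mutant array than on either WT array, and higher on mutant array 1 than on mutant array 2. All 8 seed genes had a higher mean in the mutant, where 49.5% of tested probe sets had a lower one. Of the 8, 2 passed an adjusted p of 0.05 in limma, against 0.0953% of all tested probe sets. Seed signal therefore differed together with genotype, and its part in the receptor values was not tested. With RNA from whole seedlings, fewer cells of a type and less RNA per cell cannot be told apart. PHYA and PHYB were not among the probe sets with a name, so the genotype labels were not checked by those genes.

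No receptor transcript differed between the genotypes beyond the spread of the arrays. Over the 4 arrays GID1A ran from 3088 to 3683 in intensity and GID1C from 1775 to 2515. GID1B ran from 680.5 to 1391, and the arrays of each genotype covered most of that range. The array numbers 1 and 2 name the arrays, and the number of WT array 1 came from accession order. Whether arrays of the same number were handled together is not stated in the labels, so none were paired.

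GID1A had intensities of 3683 and 3088 in phyA phyB seedlings, against 3579 and 3526 in WT seedlings. Mutant array 1 lay above both WT arrays and mutant array 2 lay below both, so the groups overlapped. The mean was 3386 ± 421 in the mutant and 3552 ± 37.6 in the WT (SD, n = 2 each). On the scale of log2(intensity + 70.1), where 70.1 is the 10th percentile of all deposited values, the difference was -0.07 (SE 0.24, 95% interval -0.61 to 0.47). Limma with Benjamini-Hochberg adjustment over 13648 probe sets gave an adjusted p of 0.957. The interval spans 0.654 to 1.38 times the WT level, before any adjustment over probe sets. It is not the smallest change that the adjusted test could have called, which was not computed.

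GID1B had intensities of 680.5 and 1373 in phyA phyB seedlings, against 762.9 and 1391 in WT seedlings. In each genotype array 1 was low and array 2 was high, and the groups overlapped almost completely. The mean was 1027 ± 490 in the mutant and 1077 ± 444 in the WT (SD, n = 2 each). The log2 difference was -0.08 (SE 0.47, 95% interval -1.14 to 0.98), with an adjusted p of 0.977 in limma. This interval, from 0.452 to 1.97 times the WT level, is the widest of the 3 receptors. A change of nearly 2-fold in either direction lies within it.

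GID1C had intensities of 2362 and 1775 in phyA phyB seedlings, against 2515 and 2102 in WT seedlings. Array 1 was the brighter in each genotype, the opposite of GID1B, and mutant array 1 fell between the WT arrays. The mean was 2069 ± 415 in the mutant and 2308 ± 291 in the WT (SD, n = 2 each). The log2 difference was -0.16 (SE 0.27, 95% interval -0.77 to 0.45), with an adjusted p of 0.908 in limma. The interval corresponds to 0.586 to 1.36 times the WT level.

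**Figure D1:**
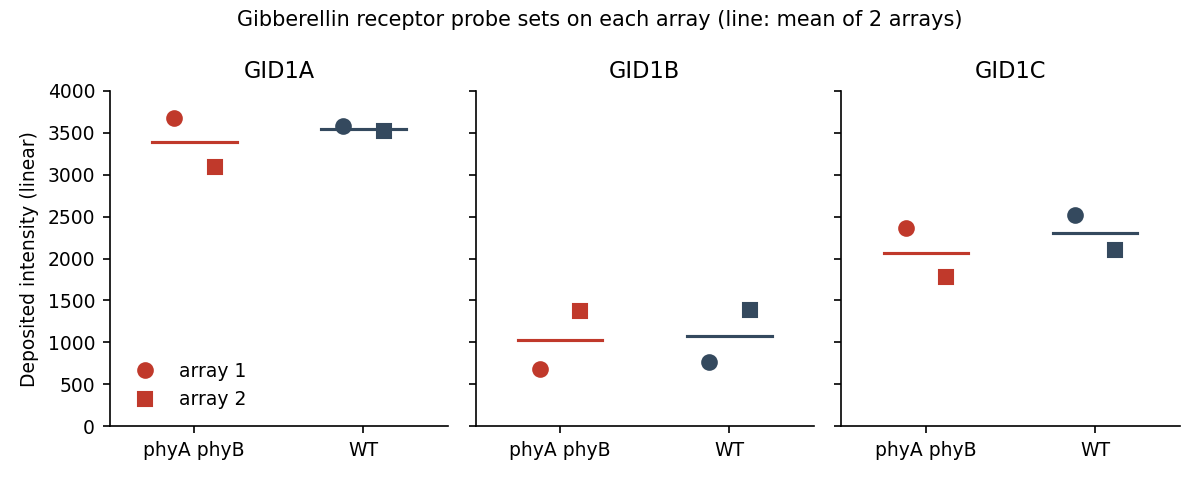
Deposited linear intensity (y axis) of the GID1A, GID1B and GID1C probe sets, with the phyA phyB arrays in red and the WT arrays in dark blue. Circles are array 1, squares array 2 and lines the mean of 2 arrays. The genotypes overlap for each receptor, and GID1B runs from 680.5 and 762.9 on the arrays numbered 1 to 1373 and 1391 on those numbered 2.

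Of the 13648 probe sets bright enough to test, 13 passed an adjusted p of 0.05 in limma, which is 0.0953%, and 988 or 7.24% had an unadjusted p under 0.05. Among the receptors 0 of 3 passed in limma and 0 of 3 had an unadjusted p under 0.05, with unadjusted values of 0.767 for GID1A, 0.863 for GID1B and 0.565 for GID1C. The groups did not overlap for 0 of 3 receptors, against 38.3% of tested probe sets. All 3 receptors had a lower mean in the mutant, where 49.5% of tested probe sets did, and the median difference was -0.08 for the receptors and 0.00398 for all tested probe sets. The size of the difference was exceeded by most probe sets: 16.0% of tested probe sets had a smaller absolute difference than GID1A, 18.3% a smaller one than GID1B and 33.9% a smaller one than GID1C.

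**Figure D2:**
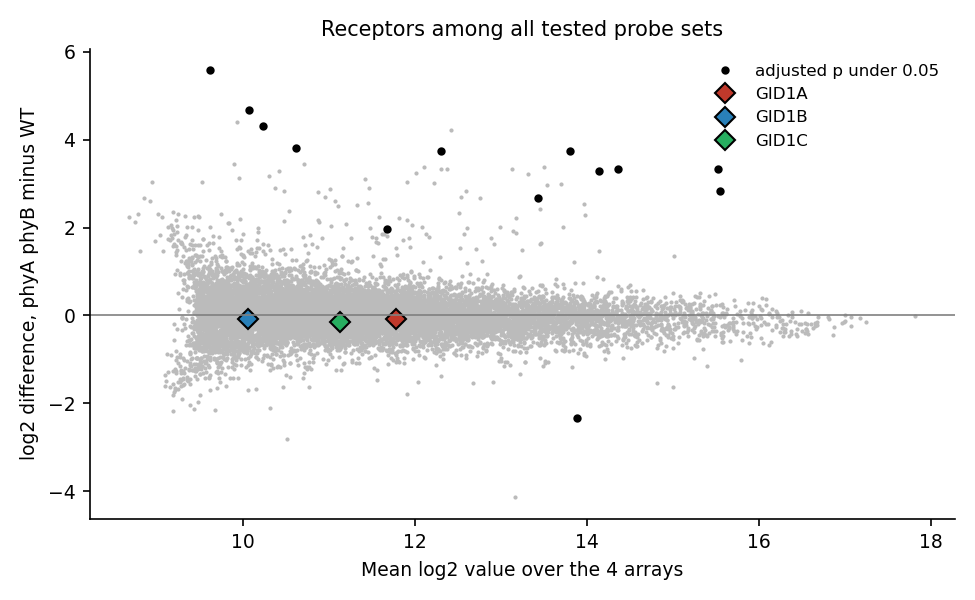
Log2 difference between phyA phyB and WT (y axis) against the mean log2 value over the 4 arrays (x axis) for each tested probe set in grey, with those past an adjusted p of 0.05 in black. The 3 receptors, drawn as diamonds, lie close to 0 at -0.07, -0.08 and -0.16.

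The difference was also taken on each mutant array against the WT mean. GID1A was 0.05 higher on mutant array 1 and stood at -0.20 on mutant array 2, on the log2 scale. GID1C was 0.04 higher on mutant array 1 and stood at -0.36 on mutant array 2. GID1B went the other way, at -0.56 on mutant array 1 and 0.39 on mutant array 2. Each receptor therefore had opposite signs on the mutant arrays, with GID1B opposed to the other receptors on each. The share of all tested probe sets with opposite signs was not counted, so this cannot be read as particular to the receptors. Against single WT arrays, the log2 difference of GID1B ran from -0.96, mutant array 1 against WT array 2, to 0.79, mutant array 2 against WT array 1. It was -0.15 for mutant array 1 against WT array 1 and -0.02 for mutant array 2 against WT array 2. For GID1A these single-array differences ran from -0.21 to 0.06 and for GID1C from -0.49 to 0.16.

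The gap between the arrays of a genotype shows the spread of each receptor itself. The SE from limma also draws on the spread of the other tested probe sets, so it need not match this gap. For GID1B, array 2 exceeded array 1 by 0.94 in the mutant and by 0.81 in the WT on the log2 scale. Of all tested probe sets, 89.7% had a smaller gap between the mutant arrays and 91.4% a smaller one between the WT arrays. GID1B was thus among the more variable of the tested probe sets within each genotype. It was not among the brightest 40%, and probe sets of like brightness were not compared. For GID1A the gaps were -0.25 in the mutant and -0.02 in the WT, and only 4.62% of tested probe sets were closer together on the WT arrays. For GID1C they were -0.40 in the mutant and -0.25 in the WT, near the medians over all tested probe sets of 0.338 and 0.266 in absolute size.

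The relative abundance of the receptors can be read from these arrays only as brightness, because probes of different genes bind their targets with different strength. GID1A was the brightest on each of the 4 arrays, GID1C followed and GID1B was the dimmest. Within each array's own values GID1A stood at the 79.7th and 76.1st percentile in phyA phyB seedlings and at the 79.3rd and 79.4th in WT seedlings. GID1C stood at the 70.3rd and 62.8th percentile in the mutant and at the 72.0th and 68.2nd in the WT. GID1B stood at the 40.2nd and 56.3rd percentile in the mutant and at the 44.3rd and 57.8th in the WT. The ranges of intensity over the 4 arrays did not overlap between the neighbours in this order.

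The brightness of 1 receptor over another within an array asks whether the receptors moved unequally. GID1A was 5.41 and 2.25 times as bright as GID1B in phyA phyB seedlings, against 4.69 and 2.54 times in WT seedlings. It was 1.56 and 1.74 times as bright as GID1C in the mutant, against 1.42 and 1.68 times in the WT. GID1B had 0.288 and 0.773 of the brightness of GID1C in the mutant, against 0.303 and 0.661 in the WT. The ratios that include GID1B thus differed between the arrays of each genotype, while that of GID1A over GID1C was more even.

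On the log2 scale with the pseudocount, GID1A over GID1B was 1.73 ± 0.84 in the mutant and 1.72 ± 0.59 in the WT (SD, n = 2 each), a difference of 0.01. GID1A over GID1C was 0.70 ± 0.11 in the mutant and 0.61 ± 0.16 in the WT, a difference of 0.09. GID1B over GID1C was -1.03 ± 0.95 in the mutant and -1.10 ± 0.75 in the WT, a difference of 0.08. Each of the 3 differences was smaller than the SD within either genotype. Two-sided exact permutation tests gave p-values of 1, 0.667 and 1, all with an adjusted p of 1 over the 3 ratios, where 0.333 is the smallest that 4 arrays allow.

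**Figure D3:**
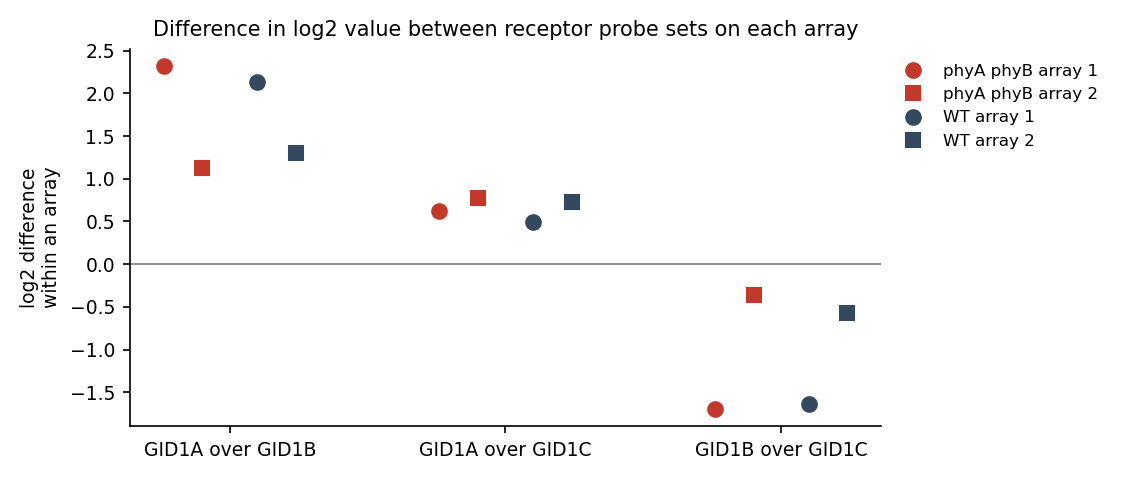
Difference in log2 value between pairs of receptor probe sets within each array (y axis), with phyA phyB arrays in red and WT arrays in dark blue, circles for array 1 and squares for array 2. GID1A over GID1C stays between 0.50 and 0.78 on all 4 arrays, whereas GID1A over GID1B lies at 2.32 and 2.13 on the arrays numbered 1 and at 1.13 and 1.30 on those numbered 2.

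Over the 4 arrays, the pattern of GID1A was closer to that of GID1C than to that of GID1B. The distance between centred log2 values, summed over the arrays as a Euclidean distance, was 0.213 for GID1A and GID1C, 1.03 for GID1A and GID1B and 1.21 for GID1B and GID1C. The nearest of 7341 other tested probe sets with 1 gene were EXO, AT5G02530 and AT3G46450 for GID1A, at distances from 0.0182 to 0.0373. For GID1B they were AT5G09460, AT5G59490 and OTP84, at 0.0535 to 0.0998, and for GID1C AT5G63150, AT4G19500 and SETH2, at 0.0366 to 0.05. The median distance to all of these probe sets was 0.559 for GID1A, 1.00 for GID1B and 0.648 for GID1C. AT5G09460, the nearest to GID1B, had 657 and 1296 in phyA phyB seedlings and 730 and 1277 in WT seedlings. Its low and high array in each genotype follow from its choice as the nearest and are no separate evidence for that pattern. With 4 arrays these distances only describe the values.

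Downstream of the receptors, 3 genes that act on DELLA proteins were tested. They also gave 0 calls in limma, against 0.0953% of all tested probe sets. SLY1, the F-box gene that acts after the receptor has bound a DELLA protein, had 2637 and 2725 in phyA phyB seedlings, against 2799 and 2454 in WT seedlings. Its log2 difference was 0.03 (SE 0.24, adjusted p = 0.986, limma), and the groups overlapped. SEC, which encodes an O-GlcNAc transferase that modifies DELLA proteins, had 3750 and 3488 in phyA phyB seedlings, against 2736 and 2078 in WT seedlings.

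Both mutant arrays lay above both WT arrays for SEC, where 38.3% of all tested probe sets had groups that did not overlap. The log2 difference of SEC was 0.59 (SE 0.25), with an unadjusted p of 0.0449 and an adjusted p of 0.679 in limma, so it did not pass. SPY, whose O-fucosyltransferase also modifies DELLA proteins, had 6594 and 3950 in phyA phyB seedlings, against 3813 and 3201 in WT seedlings. The groups did not overlap for SPY either. Its difference of 0.54 (SE 0.29, adjusted p = 0.709, limma) rested on unequal arrays, 0.90 above the WT mean on mutant array 1 and 0.17 above it on the second mutant array. SLY2, an F-box relative of SLY1, was below the brightness limit for testing, with 149.3 and 686.2 in the mutant and 626.1 and 678.5 in the WT.

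The list of gibberellin genes beside the receptors held 57 genes for synthesis, inactivation, DELLA proteins, their modifiers and partners, and targets. Of these, 12 had a named probe set and 7 were bright enough to test. The 14 synthesis, 9 inactivation and 5 DELLA genes had no named probe set in the annotation used, so they were not analysed. The 7 tested genes were thus DELLA modifiers, a DELLA partner and targets only. In limma 0 of the 7 passed in either direction, against 0.0953% of all tested probe sets. An unadjusted p under 0.05 was found for 1 of the 7, against 7.24% of all tested probe sets. The groups did not overlap for 4 of 7, where 38.3% of all tested probe sets did not, and the median log2 difference was 0.10. SPT, a bHLH gene that restrains germination of dormant seeds, had 4081 and 6307 in phyA phyB seedlings, against 6549 and 7976 in WT seedlings, a difference of -0.50 (SE 0.27, adjusted p = 0.709, limma).

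Among targets, XERICO, a RING-type gene whose transcript DELLA proteins raise, had 9353 and 10940 in phyA phyB seedlings, against 9162 and 9648 in WT seedlings. Mutant array 1 lay between the WT arrays, and the log2 difference was 0.10 (SE 0.22, adjusted p = 0.932, limma). AT2G14900 and AT5G59845, listed with the GASA family, differed by -0.06 and 0.54, neither past the threshold.

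GID1 proteins belong to the plant carboxylesterase family, although they bind a hormone in place of acting as enzymes. Of 17 listed relatives, 12 were present by name, and 10 of them were bright enough for the test. In limma 0 of 10 passed and 1 had an unadjusted p under 0.05, against 0.0953% and 7.24% of all tested probe sets. Their log2 differences ran from -1.18 to 0.35 with a median of -0.22, against -0.16 to -0.07 for the receptors. The groups did not overlap for 4 of 10, close to the 38.3% of all tested probe sets. AT1G68620 had the lowest value, with 471.2 and 1406 in phyA phyB seedlings against 2008 and 1908 in WT seedlings, an unadjusted p of 0.0285 and an adjusted p of 0.651 in limma. AT2G45600 had 876 and 1047 in the mutant and 1418 and 1866 in the WT, with a difference of -0.72 (SE 0.33, adjusted p = 0.693, limma). The highest difference was that of AT3G27320, at 0.35. Against the WT mean, the median over the 10 genes was -0.50 on mutant array 1 and 0.31 on the second mutant array. The signs on these arrays were opposite for 4 genes and the same for 6, with no share over all tested probe sets counted.

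**Figure D4:**
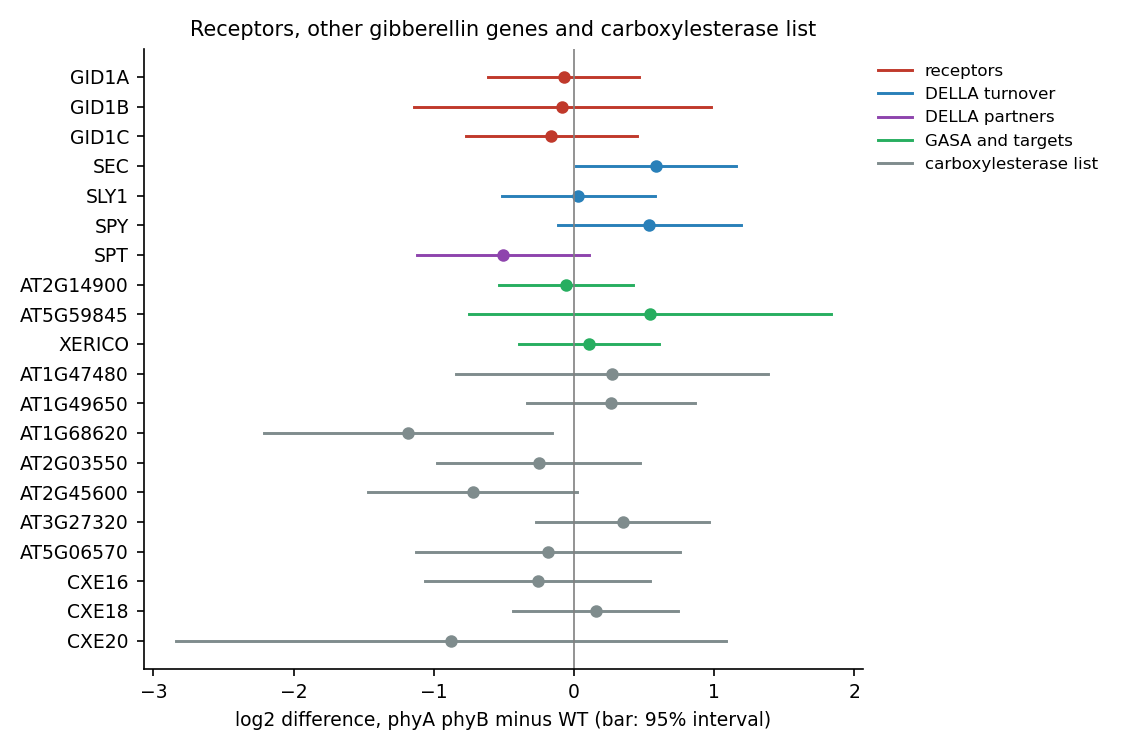
Log2 difference between phyA phyB and WT (x axis) with its 95% interval from limma for the 3 receptors, 7 other gibberellin genes and 10 genes of the carboxylesterase list, coloured by list. The intervals of all 3 receptors include 0, and those of SEC and AT1G68620 do not, although neither gene passed after adjustment over all tested probe sets.

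The receptor result was also fitted under other normalizations, pseudocounts, filters and variance models and with each array left out. The 95% interval of each receptor included 0 in every one of these fits that gave a value, and the estimate of GID1B moved most when single arrays were left out.

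**Figure D5:**
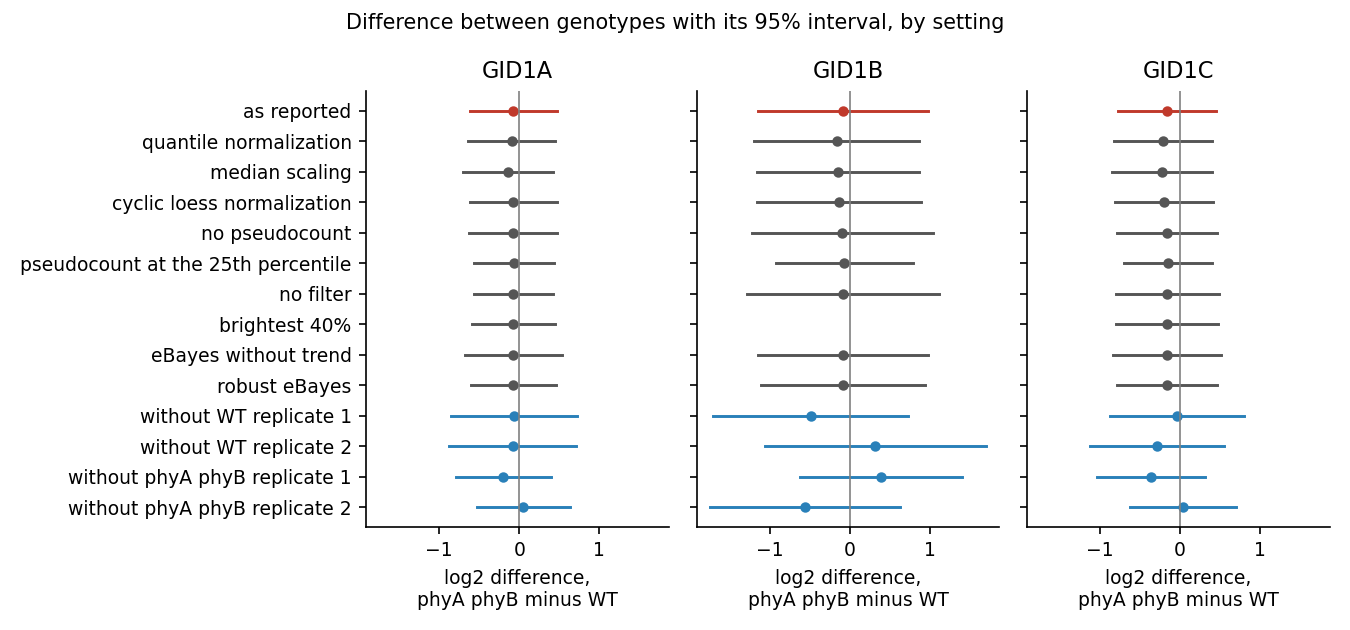
Log2 difference between phyA phyB and WT (x axis) with its 95% interval for each receptor as reported (red), under other normalizations, pseudocounts, filters and variance models (grey) and with 1 array left out (blue). Every interval drawn includes 0, and GID1B moves between -0.56 and 0.39 as single arrays are left out.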

How the data were processed

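Total RNA was extracted with a Qiagen RNeasy kit and labelled following Affymetrix, per the labels' protocols. The authors deposited linear intensities, which had been scaled: means after trimming 2% at each end ran only from 2482 to 2484. Which software, summary method and detection calls were used is not given in the sources used here. This scaling was kept, and values were tested as log2(intensity + 70.1), which understates changes at low intensity. The brightest 60% by mean, 13648 of 22746 probe sets, were fitted with limma 3.58.1 in R 4.3.3 (lmFit, eBayes with an intensity trend), with Benjamini-Hochberg adjustment at 0.05. The fit was checked on data simulated from its own variance model, which cannot show batches or dependence between arrays. The labels do not state separate cultures for replicates, so the p-values cover the spread between these samples alone, and it may be technical. The label of WT array 1 holds no number, and accession order supplied it.

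Symbols were taken from the platform annotation (possibly old) and updated through RefSeq (TAIR10.1): 13513 probe sets had 1 gene, 503 had several, 8730 were not listed, and RefSeq matched 13436. Without a stated build, no coordinates are given. The receptors and lists were chosen with earlier results of these data known. Genes named were the receptors, tested list genes and the 3 nearest probe sets of each receptor; the untested SLY2 was named after its values were seen. Each list gene was read by its brightest probe set. Alternatives covered normalization, pseudocount, filter, variance model and each array left out. Figures used matplotlib 3.10.9.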

Additional observations from a re-analysis of the deposited data

How the results depend on the processing

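With each array left out in turn, on the assumption that a lone array varies like those of the other genotype, the log2 difference between phyA phyB and WT ran from -0.20 to 0.051 for GID1A, from -0.56 to 0.39 for GID1B and from -0.36 to 0.037 for GID1C. GID1A and GID1C changed sign without mutant array 2, at 0.051 and 0.037. GID1B changed sign without mutant array 1, at 0.39, and without WT array 2, at 0.32. No receptor passed the threshold in any of these fits. The difference in GID1A over GID1B ran from -0.59 to 0.61, that in GID1A over GID1C from -0.026 to 0.20 and that in GID1B over GID1C from -0.59 to 0.75. The first changed sign without mutant array 1 (-0.59) and without WT array 2 (-0.41), the second without WT array 1 (-0.026), and the third without mutant array 2 (-0.59) and without WT array 1 (-0.45). GID1A over GID1B turned to -0.0036 with the pseudocount at the 25th percentile, 323.9; the cause was not tested. Under the other normalizations, pseudocounts, filters and variance models, GID1A (9 alternatives, -0.14 to -0.07), GID1B (8, -0.16 to -0.06) and GID1C (9, -0.23 to -0.14) kept their sign and did not pass, with adjusted p from 0.867 to 0.986 in limma. GID1B was not among the brightest 40% and gave no value there. The count of gibberellin genes called was 0 under all 13 alternatives. No paired analysis was possible because WT and phyA phyB share only 1 replicate number in the labels. No signal over background was given, which limits what the dimmer GID1B probe set shows.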
